A study of Mus musculus with 4 samples.

Results

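The Ms4a genes encode small proteins that cross the cell membrane 4 times and mark different leukocytes. The 7 genes described here are Ms4a1, Ms4a4b, Ms4a4c, Ms4a6b, Ms4a6c, Ms4a6d and Ms4a7, taken by symbol from 32285 genes in the count matrix. The matrix holds 19 genes whose symbol starts with Ms4a. The 7 members were chosen because earlier results on these libraries had shown them in B cells, T cells or macrophages, so the class in which each is high is a description and was not tested.

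Ms4a1 encodes CD20, a surface protein of B cells that is lost in plasma cells and is the target of therapeutic antibodies. The product of Ms4a4b is found on T cells, where it is known to modulate signaling and to associate with the costimulatory receptor GITR. The remaining members are mostly known from monocytes, macrophages and dendritic cells, and the neighbouring Ms4a4a, a macrophage gene, was read beside them.

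Leukocytes were sorted as live CD45+ cells from subcutaneous tumors of C57BL/6 mice, and their RNA was profiled with a 5′ droplet single-cell assay. The tumors were grown from the murine pancreatic carcinoma line KPC. Mice of 1 group were untreated, and the other groups received an agonist of STING (a sensor of cytosolic cyclic dinucleotides that drives type I interferon), an agonist of LTbR (the lymphotoxin-beta receptor, here an activating antibody), or both agonists, named the combination below. Per the methods of the study, tumors of a group were pooled before sorting, so each of the 4 groups is 1 library with no value per animal. No spread between mice can be estimated and no test was made. All intervals are exact 95% intervals and cover counting error only. All 3 comparisons with untreated use the same untreated library. The groups share the strain, the tumor line and the sort, and dose and day are not in the labels.

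The untreated, STING agonist, LTbR agonist and combination libraries held 6783, 3748, 7147 and 5333 cells within the quality limits, with medians of 7094, 6748, 5750 and 5877 unique molecular identifiers (UMIs) per cell. Of the barcode sequences of these cells, 246 occurred in more than 1 library. Cells were clustered without any Ms4a gene and named from RNA markers, so names end in "-like". B- and plasma-like cells made up 0.870%, 0.400%, 2.46% and 10.1% of the cells of the 4 libraries, which is only 15 cells in the STING agonist library. T-like cells made up 31.4%, 37.7%, 32.9% and 41.2%, and macrophage- or monocyte-like cells 44.7%, 39.2%, 38.9% and 31.2%. Clusters of each of these 3 classes were split again into sub-clusters, called B0 to B7, T0 to T16 and M0 to M13. Levels are UMIs of a gene per 1000000 UMIs (CPM) of the same cells, not divided by gene length, so levels are compared within a gene and not between genes.

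The 7 members lie on mouse chromosome 19 (GRCm38, gene bounds from GENCODE), in 0.355 Mb between positions 11249675 and 11604849, and all 19 Ms4a genes lie in 0.679 Mb from position 10962293 to 11640851. From low to high coordinates the members are Ms4a1 (minus strand), Ms4a7 (minus), Ms4a4c (plus), Ms4a4b (plus), Ms4a6c (plus), Ms4a6b (plus) and Ms4a6d (minus). Ms4a4c (chr19:11404770-11427246) and Ms4a4b (chr19:11443553-11467055) are neighbors, but the first was read mostly in macrophages and the second mostly in T and NK cells. Ms4a6c (chr19:11469366-11482192) and Ms4a6b (chr19:11516512-11531256) are also neighbors, but Ms4a6b was read in T cells as well. The sequences upstream of these pairs are shown because members of a pair that differ in cell type share long stretches there. The letters are the 250 bases before the annotated start, 5′ to 3′ on the plus strand, from the RefSeq annotation of GRCm38.p6, and capitals mark runs of at least 12 bases that both genes of a pair hold. For Ms4a4c and Ms4a6b, RefSeq places the start well downstream of the first base of the GENCODE gene, and for the other two within a few bases of it.
Ms4a6b, chr19:11518309-11518558: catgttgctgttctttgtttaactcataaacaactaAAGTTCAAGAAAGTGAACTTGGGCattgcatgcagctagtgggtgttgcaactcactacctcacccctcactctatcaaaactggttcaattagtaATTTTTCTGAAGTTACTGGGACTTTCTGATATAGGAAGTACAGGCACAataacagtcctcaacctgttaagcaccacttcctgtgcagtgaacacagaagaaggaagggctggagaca
Ms4a6c, chr19:11469118-11469367: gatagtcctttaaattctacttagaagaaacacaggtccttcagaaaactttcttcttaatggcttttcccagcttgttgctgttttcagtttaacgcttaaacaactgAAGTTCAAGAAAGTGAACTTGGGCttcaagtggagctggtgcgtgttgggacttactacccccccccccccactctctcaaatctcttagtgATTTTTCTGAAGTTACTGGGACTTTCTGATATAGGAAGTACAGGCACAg
Ms4a4b, chr19:11443308-11443557: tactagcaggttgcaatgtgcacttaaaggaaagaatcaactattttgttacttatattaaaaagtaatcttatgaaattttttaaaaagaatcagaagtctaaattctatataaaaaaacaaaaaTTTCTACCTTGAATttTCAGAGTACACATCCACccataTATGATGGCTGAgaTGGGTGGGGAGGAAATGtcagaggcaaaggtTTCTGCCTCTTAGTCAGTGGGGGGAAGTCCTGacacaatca
Ms4a4c, chr19:11407411-11407660: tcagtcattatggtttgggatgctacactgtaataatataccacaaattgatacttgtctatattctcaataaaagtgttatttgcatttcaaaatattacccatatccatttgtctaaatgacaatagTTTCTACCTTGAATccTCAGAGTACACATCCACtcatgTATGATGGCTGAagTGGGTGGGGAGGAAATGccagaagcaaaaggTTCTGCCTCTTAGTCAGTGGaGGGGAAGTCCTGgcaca

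The promoters of Ms4a6b and Ms4a6c shared 72 of 250 bases in such runs, the longest of 48 bases. Those of Ms4a4b and Ms4a4c shared 92 bases, the longest run being 20 bases. Of the 7 members, 5 had an entry among the promoter sequences, with 6 windows since Ms4a7 has 2. The interferon-regulatory-factor-type word GAAANNGAA, searched on both strands, was in 4 of these 6 windows, namely those of Ms4a6b, Ms4a6c and both of Ms4a7, against 7.13% of 32851 promoters. The PU.1-type word GAGGAA was in those of Ms4a4b and Ms4a4c, at 64 and 61 bases before the start, against 23.3% of all promoters. The AP-1-type word TGANTCA was in 1 window of Ms4a7, against 6.75% of all promoters. A match is a description of letters and not a bound site. Since paralogs this alike can share reads, the longest coding transcripts were compared in windows of 50 bases. Another Ms4a gene held 8.48% of the windows of Ms4a4c, 6.08% of those of Ms4a6c, 5.66% of Ms4a6b, 4.19% of Ms4a4b and 2.92% of Ms4a6d, and none of those of Ms4a1 and Ms4a7. How reads from such windows were assigned could not be seen in the counts.

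Over the 4 libraries, each member had most of its UMIs in 1 or 2 classes. Ms4a1 had 98.9% of its UMIs in B- and plasma-like cells. Ms4a4b had 76.9% in T-like and 17.1% in NK-like cells. Ms4a6b was divided between macrophage- or monocyte-like cells, with 57.1%, and T-like cells, with 31.7%. Ms4a4c had 75.0% in macrophage- or monocyte-like and 12.9% in dendritic-like cells. Ms4a6c, Ms4a6d and Ms4a7 had 81.9%, 84.7% and 92.7% in macrophage- or monocyte-like cells.

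**Figure D1:**
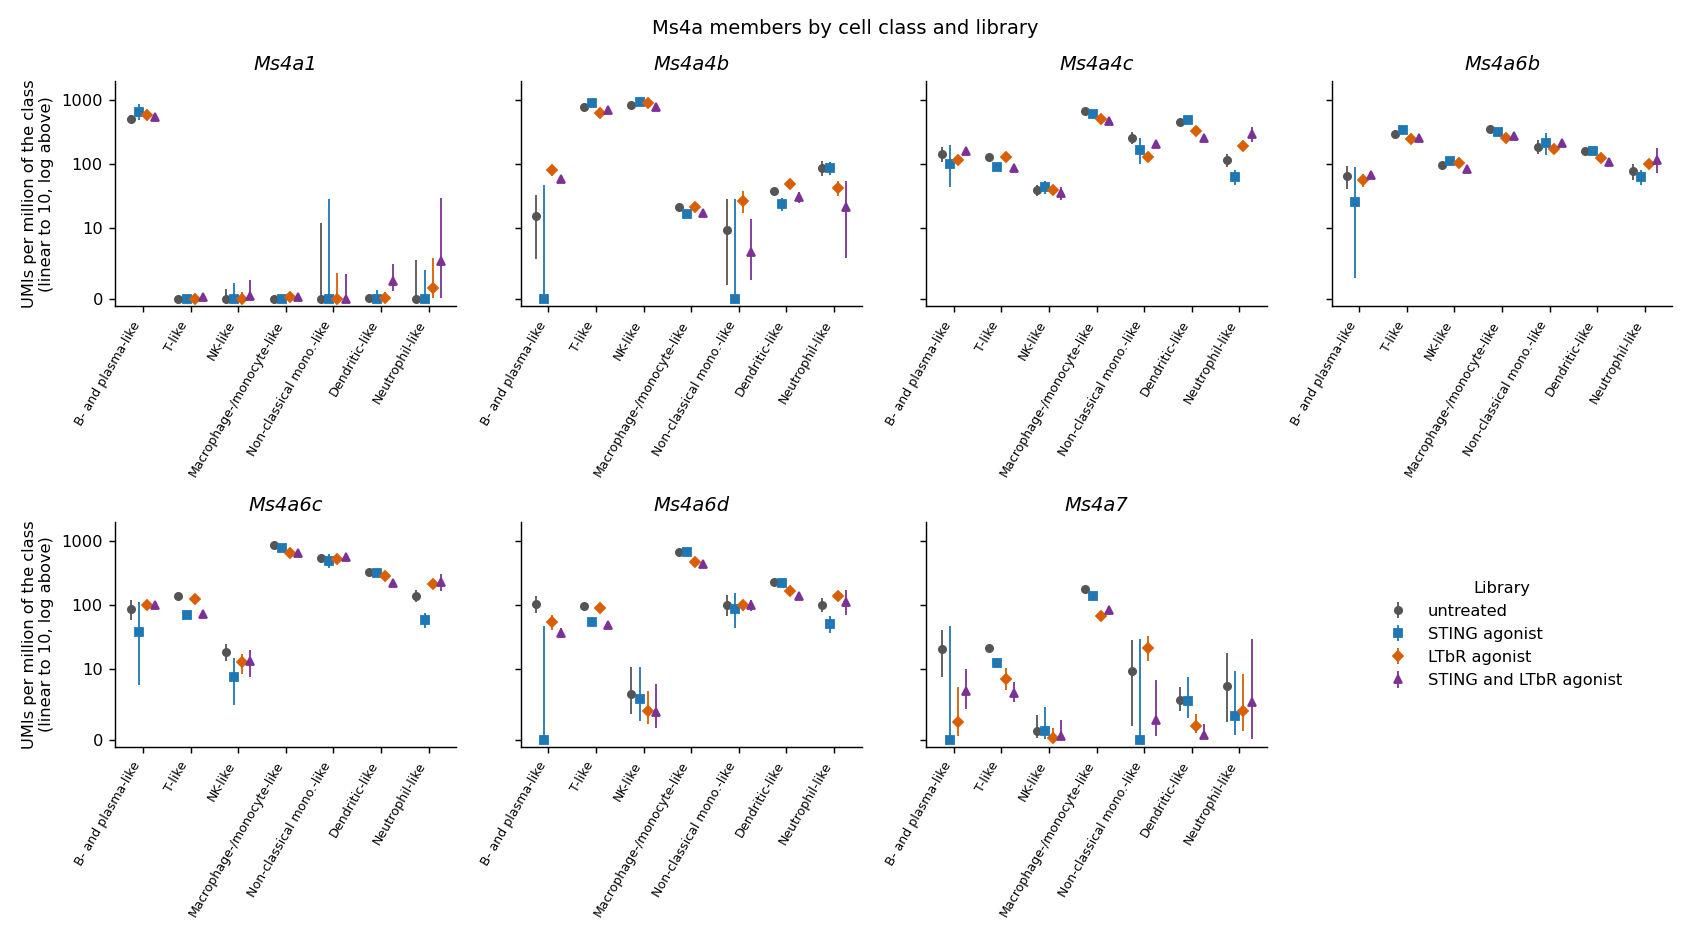
Level of each of the 7 members (vertical axis, CPM, linear to 10 and log above) in 7 cell classes, with 1 point for each of the 4 libraries and exact 95% counting intervals as bars. Ms4a1 is high in B- and plasma-like cells, Ms4a4b in T-like and NK-like cells, and Ms4a4c, Ms4a6c, Ms4a6d and Ms4a7 in macrophage- or monocyte-like cells, in each library.

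Across the 26 clusters of all cells, the levels of Ms4a6c and Ms4a6d had a Pearson r of 0.95, those of Ms4a4c and Ms4a6d of 0.92, and those of Ms4a4c and Ms4a6c of 0.90. Ms4a6b stood apart from these 3, with r of 0.27 to Ms4a6c, 0.34 to Ms4a6d and 0.41 to Ms4a4c. Ms4a4b and Ms4a6c had r of -0.73. Among 7350 genes, the one most like Ms4a4b was Lck, the T cell receptor proximal kinase, with r of 0.974. For Ms4a6b it was Ifi206, an interferon-inducible gene, with 0.841, and for Ms4a6c Slamf8, with 0.975. For Ms4a6d it was Fcgr1, a high-affinity Fc receptor of macrophages, with 0.977, and for Ms4a7 Trem2, a lipid receptor of macrophages, with 0.970. For Ms4a4c it was Ms4a6d itself, with 0.920, and for Ms4a1 an immunoglobulin light chain segment, Igkv6-32, with 0.999. These are descriptions over clusters that share libraries and depth. Ms4a1 stood at 563 CPM in the single B- and plasma-like cluster and at no more than 1.38 CPM in any other. Any gene confined to that cluster therefore has an r near 1 with Ms4a1, so its value is not particular to Igkv6-32.

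Over all cells, Ms4a1, the gene of CD20, stood at 3.77 CPM in the untreated library, 1.75 in the STING agonist library, 14.2 in the LTbR agonist library and 53.5 in the combination library. Within B- and plasma-like cells its level was 515 CPM (95% interval 446 to 591) in untreated, 656 (490 to 860) under the STING agonist, 596 (553 to 642) under the LTbR agonist and 555 (531 to 580) under the combination. The intervals of the 4 libraries within the class overlapped, while the levels over all cells did not overlap and followed the order of the shares of B- and plasma-like cells. Against untreated, the log2 ratio within the class was 0.21 (-0.09 to 0.52) for the LTbR agonist and 0.11 (-0.15 to 0.37) for the combination. The share of B- and plasma-like cells with an Ms4a1 UMI was 72.9%, 80.0%, 78.4% and 80.1%. Among T-like cells, which should lack the gene and had similar median UMIs (4515 to 5180 against 4456 to 4827), the share was 0%, 0%, 0.0425% and 0.182%. The first 2 of these rest on no UMI in 2133 and 1412 cells, and a count of 0 allows a share of up to 0.141% and 0.212%.

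Among B- and plasma-like sub-clusters, Ms4a1 was lowest in B6, the plasma-like cells led by Igha and Jchain, at 155 CPM over the 4 libraries. It was highest, at 1005 CPM, in B7, a sub-cluster of 20 cells that was given no name. The memory-like B0, led by Sox5, Lmo7 and Fcrl5, had 859 CPM, and the follicular-like B2 and B3 had 596 and 626 CPM. Ms4a1 was at 873 CPM in B0 of the LTbR agonist library and at 847 CPM in B0 of the combination library, and in the 4 sub-clusters with at least 20 cells in both of these libraries the combination stood lower by 0.04 to 0.29 on the log2 scale. Ms4a4c was also read in B cells, at 231 CPM in B1, 140 in B2 and 158 in B3, against 48.0 in the memory-like B0 and 8.08 in the plasma-like B6. Many UMIs of the myeloid members lay in sub-clusters that also held genes of other lineages. B4, led by Il1b, Tgfbi and Ifitm3, and B5, led by Gzma, Nkg7 and Cd3g, had 17.03% of the B- and plasma-like cells. They held 98.3% of the Ms4a6d, 88.9% of the Ms4a7, 78.6% of the Ms4a6b, 77.6% of the Ms4a6c and 51.8% of the Ms4a4c UMIs of the class. Of Ms4a4b, the T cell member, they held 93.0%, and of Ms4a1 17.6%. Without B4 and B5, the Ms4a1 log2 ratio over untreated was 0.34 (-0.0008 to 0.69) with the LTbR agonist. With the combination it was 0.23 (-0.06 to 0.53).

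A member was counted as higher or lower when its level in a class differed by at least 1.5-fold after 10 CPM were added to both libraries. Genes compared had at least 10 CPM in 1 of the 2 libraries and at least 20 UMIs in both together. In B- and plasma-like cells, Ms4a4b was higher and Ms4a6d lower with the LTbR agonist among 6 members with enough counts, by 1.84 (95 against 6 UMIs) and -0.83 (63 against 40 UMIs) on the log2 scale. In that comparison 9.69% of 7469 genes were higher and 6.59% lower. With the combination, Ms4a4b was higher (1.43) and Ms4a6d (-1.27) and Ms4a7 (-0.86) were lower among 7 members, where 9.41% and 5.82% of 8619 genes were. The Ms4a7 difference rests on 25 against 8 UMIs, its interval (-1.81 to 0.09) includes 0, and without the top cell of each library it was 0.32. Without B4 and B5, too few UMIs were left to compare Ms4a4b (9 with the combination, 10 with the LTbR agonist and 3 in untreated), Ms4a6d (3, 1 and 0) or Ms4a7 (2, 2 and 0). Of the 4 members with enough counts there, none passed 1.5-fold with the combination, and with the LTbR agonist Ms4a6c was higher, by 0.70 (-0.46 to 1.84, 42 against 8 UMIs), which it was not with B4 and B5 included. Of Cd79a, Cd79b, Cd22, Cd37 and Cd40, whose products act with CD20 or the B cell receptor, none passed 1.5-fold with the LTbR agonist or the combination. Cd79a stood at 1644 CPM in untreated, 1953 with the LTbR agonist and 2097 with the combination. The STING agonist library, with 15 B- and plasma-like cells, was not used for such counts.

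In T-like cells, Ms4a4b stood at 778 CPM (763 to 793) in untreated, 921 (901 to 941) under the STING agonist, 630 (616 to 643) under the LTbR agonist and 716 (702 to 730) under the combination. The 4 intervals did not overlap, and the STING agonist library was highest and the LTbR agonist library lowest. The log2 ratios over untreated were 0.24 (0.18 to 0.30), -0.30 (-0.36 to -0.24) and -0.12 (-0.17 to -0.06), none of which reached 1.5-fold. With sub-clusters weighted by their share of the class over the 4 libraries together, they were 0.12, -0.14 and -0.12, so that the LTbR agonist and combination libraries then lay close to each other. The share of T-like cells with an Ms4a4b UMI was 76.8%, 75.0%, 71.5% and 75.6%. It was 12.7% to 15.7% in macrophage- or monocyte-like cells of the first 3 libraries and 10.5% in those of the combination library, although these cells had more UMIs (medians 7994 to 10451). In NK-like cells, Ms4a4b stood at 850, 932, 901 and 786 CPM.

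Ms4a6b in T-like cells had the same order of the highest and lowest libraries. Its level was 294 CPM (284 to 303) in untreated, 338 (326 to 351) under the STING agonist, 247 (239 to 256) under the LTbR agonist and 254 (246 to 263) under the combination. Only the last 2 intervals overlapped. The log2 ratios over untreated were 0.20, -0.24 and -0.20, and the combination stood at -0.40 (-0.49 to -0.30) against the STING agonist library. The gene of the MS4A4B partner GITR, Tnfrsf18, stood at 246, 272, 282 and 283 CPM, lowest in untreated.

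Among the 17 T-like sub-clusters, Ms4a4b ranged from 130 to 1302 CPM over the 4 libraries. It was highest in T2, exhausted-like CD8 cells led by Ccl3 and Serpine2, at 1302 CPM, and in T5, memory-like CD8 cells led by Xcl1 and Il2, at 1282 CPM. The other exhausted-like CD8 sub-cluster, T0, had 924 CPM, and CD8 cells with Ly49 receptors, T1, had 971 CPM. Regulatory-like cells with Foxp3, T3, had 302 CPM. The lowest were gamma-delta-like cells with Il17a, T8, at 147 CPM, and Th2- or ILC2-like cells with Il13 and Il5, T14, at 130 CPM. Ms4a6b was ordered otherwise. Its highest level was in naive-like T13 with Ccr7 and Lef1, at 590 CPM, then in T5 at 469 CPM and naive-like T9 at 381 CPM, and its lowest again in T14 at 104 CPM. Ms4a4c was low in most T-like sub-clusters, with a median of 37.7 CPM, but reached 128 CPM in the Ly49 CD8 cells of T1, in which it stood at 131, 116, 146 and 112 CPM in the 4 libraries.

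The order of the libraries was examined within the 14 T-like sub-clusters with at least 20 cells in each library. Ms4a4b was highest in the STING agonist library in 7 of them, and lowest in the LTbR agonist library in 6 and in the combination library in 5. Ms4a6b was highest in the STING agonist library in 7, and lowest in the combination library in 7 and in the LTbR agonist library in 5. In T2, Ms4a4b stood at 1304 CPM in untreated, 1530 with the STING agonist, 1053 with the LTbR agonist and 1276 with the combination. In T5 the values were 1306, 1489, 1149 and 1167 CPM, again highest with the STING agonist. In T8, the gamma-delta-like cells, the STING agonist library was lowest and the LTbR agonist library highest, with 183, 90.5, 248 and 108 CPM. Regulatory-like T3 cells were 7.74%, 6.94%, 14.3% and 7.51% of the T-like cells, so the LTbR agonist library had the most cells of a sub-cluster low in Ms4a4b. Ms4a4b levels within T3 were 281, 282, 296 and 337 CPM.

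**Figure D2:**
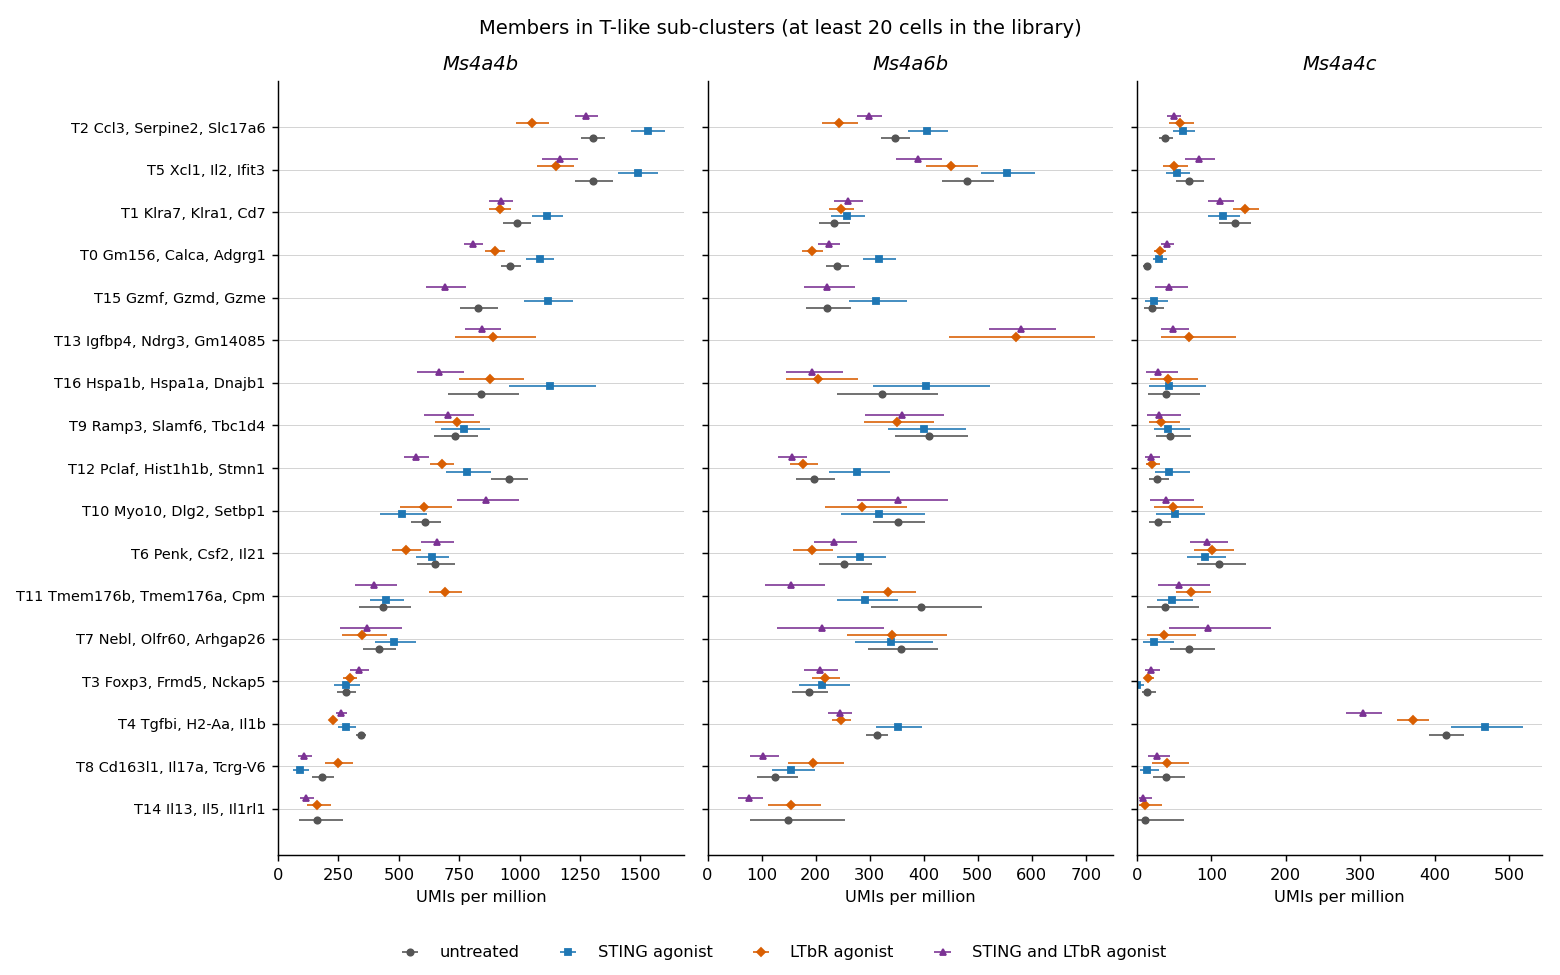
Levels of Ms4a4b, Ms4a6b and Ms4a4c (CPM) in the T-like sub-clusters, with 1 point per library with at least 20 cells and exact 95% counting intervals. Ms4a4b reaches 1302 CPM over the libraries in T2 and 130 in T14, and Ms4a6b is highest in naive-like T13.

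Levels of the myeloid members in T-like cells rested on sub-cluster T4, which had 746 cells, a median of 12309 UMIs and Tgfbi, H2-Aa and Il1b as leading genes. It made up 11.0%, 4.25%, 11.7% and 8.06% of the T-like cells of the 4 libraries. It held 84.4% of the Ms4a6c UMIs of the class, 81.7% of those of Ms4a6d and 91.9% of those of Ms4a7, but 6.70% of the Ms4a4b UMIs and 18.0% of the Ms4a6b UMIs. In the class as a whole, Ms4a6c and Ms4a6d were lower with the STING agonist (-0.92 and -0.72 on the log2 scale), where 2.51% of 8725 genes were lower and 0.905% higher. Ms4a7 was lower with the LTbR agonist (-0.77), where 1.1% of 8696 genes were lower and 0.747% higher. All 3 were lower with the combination, where 1.92% of 8643 genes were lower and 0.509% higher. Without T4, none of the 5 members with enough counts passed 1.5-fold in any of these comparisons, and Ms4a7 had too few UMIs to be counted. Ms4a6c then stood at 21.4, 18.3, 19.96 and 19.1 CPM and Ms4a6d at 16.5, 14.99, 16.8 and 16.5 CPM. Without T4, Ms4a4b stood at 903, 984, 750 and 791 CPM and Ms4a6b at 288, 337, 247 and 256 CPM, so the order of the libraries stayed as before.

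In macrophage- or monocyte-like cells, all 6 members with enough counts were below the untreated level in each of the 3 comparisons, and their medians were -0.15 (STING agonist), -0.41 (LTbR agonist) and -0.44 (combination) on the log2 scale. Ms4a4b with the LTbR agonist differed by only -0.00. The medians over all genes tested were 0.01, 0.01 and 0.04. No member passed 1.5-fold with the STING agonist, where 0.0931% of 7519 genes were lower and 0.199% higher. Ms4a7 was lower with the LTbR agonist, where 0.704% of 7524 genes were lower and 1.2% higher. Ms4a7 and Ms4a6d were lower with the combination, where 1.25% of 7607 genes were lower and 1.71% higher.

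Ms4a7 stood at 175 CPM (170 to 180) in untreated macrophage- or monocyte-like cells, 136 (130 to 142) under the STING agonist, 67.7 (64.4 to 71.0) under the LTbR agonist and 83.8 (79.1 to 88.7) under the combination. The intervals did not overlap, and both libraries with the LTbR agonist were lower than both without it. The log2 ratios over untreated were -0.34 (-0.44 to -0.25), -1.25 (-1.35 to -1.15) and -0.98 (-1.09 to -0.87). With both agonists it stood 0.27 (0.14 to 0.41) above the LTbR agonist alone, but at -0.075 with sub-clusters weighted alike in both libraries. The share of these cells with an Ms4a7 UMI was 40.1%, 37.2%, 22.1% and 19.8%, and 12.8%, 10.8%, 5.85% and 6.52% after each cell was thinned to 1000 UMIs. In dendritic-like cells, with more UMIs per cell, it was 2.73%, 2.87%, 1.75% and 0.749%.

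Ms4a6d stood at 677 CPM (667 to 686) in untreated, 665 (653 to 678) under the STING agonist, 474 (465 to 483) under the LTbR agonist and 432 (421 to 443) under the combination. The first 2 overlapped, and the last 2 lay below both. Its log2 ratios over untreated were -0.02 (-0.07 to 0.02), -0.51 (-0.55 to -0.46) and -0.64 (-0.69 to -0.58). Ms4a4c stood at 668, 608, 506 and 479 CPM, Ms4a6c at 880, 785, 658 and 658 CPM, and Ms4a6b at 351, 324, 262 and 275 CPM. Each of these 3 was lowest in the libraries with the LTbR agonist and none passed 1.5-fold, the ratios with the LTbR agonist being -0.39, -0.41 and -0.41, or -0.18, -0.22 and -0.23 with sub-clusters weighted. Ms4a6c differed by -0.00 (-0.05 to 0.05) between the combination and the LTbR agonist alone.

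**Figure D3:**
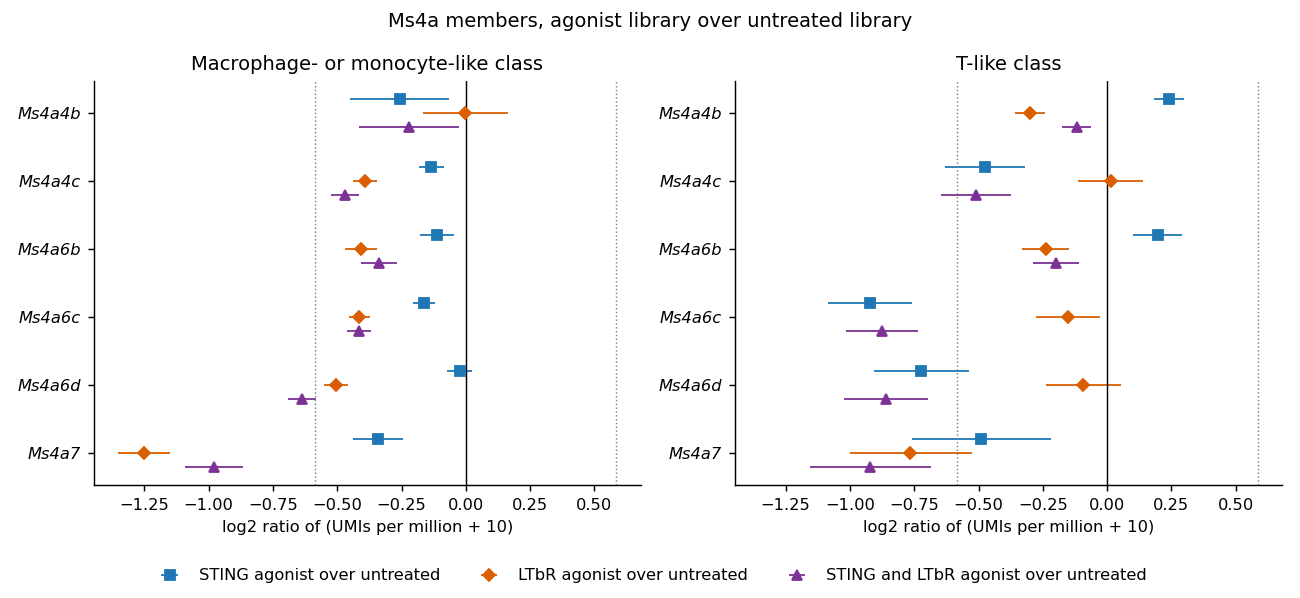
Log2 ratios of the members (after adding 10 CPM) in macrophage- or monocyte-like and T-like cells for each agonist and the combination over untreated, with exact 95% counting intervals as bars and dotted lines at 1.5-fold. In macrophage- or monocyte-like cells Ms4a7 lies at -1.25 with the LTbR agonist and -0.98 with the combination.

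Macrophage- or monocyte-like sub-clusters differed more in Ms4a levels than the libraries did. Ms4a4c ranged from 175 CPM in M11 to 1326 CPM in M4, with a median of 427 CPM over 14 sub-clusters. M4 had 724 cells and was led by the interferon-stimulated genes Rsad2, Cmpk2 and Ifit1bl1. It also had the highest Ms4a6b (495 CPM), Ms4a6c (1157 CPM) and Ms4a6d (1065 CPM), over the libraries together and in each of the 4 libraries. Ms4a4c in M4 was 1389, 1434, 1232 and 1158 CPM. Next for Ms4a4c came M6, monocyte-like cells led by Cxcl10, at 871 CPM, and M0, monocyte-like cells led by Timp1, at 846 CPM. M4 was 10.0%, 8.17%, 7.40% and 5.71% of the class in the 4 libraries. Of 9 interferon-stimulated genes listed beside the members, none passed 1.5-fold over untreated in the class as a whole, with medians of -0.09, -0.22 and -0.17.

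Ms4a7 had another order. It was highest in M11 (445 CPM) and M9 (292 CPM), both led by Ccl8, then in M1 (238 CPM), the cells with C1qb, Apoe and Trem2, and in M3 (175 CPM), led by Retnla, Ighg1 and Lyz1. It was lowest in M5 (9.67 CPM), M6 (11.1 CPM) and M0 (30.3 CPM). M4, highest for Ms4a4c, Ms4a6b, Ms4a6c and Ms4a6d, had 114 CPM. M1 made up 28.6% and 25.3% of the class in the untreated and STING agonist libraries but 3.59% and 3.24% in those with the LTbR agonist and the combination. M3 made up 1.91%, 6.26%, 8.98% and 22.6%.

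**Figure D4:**
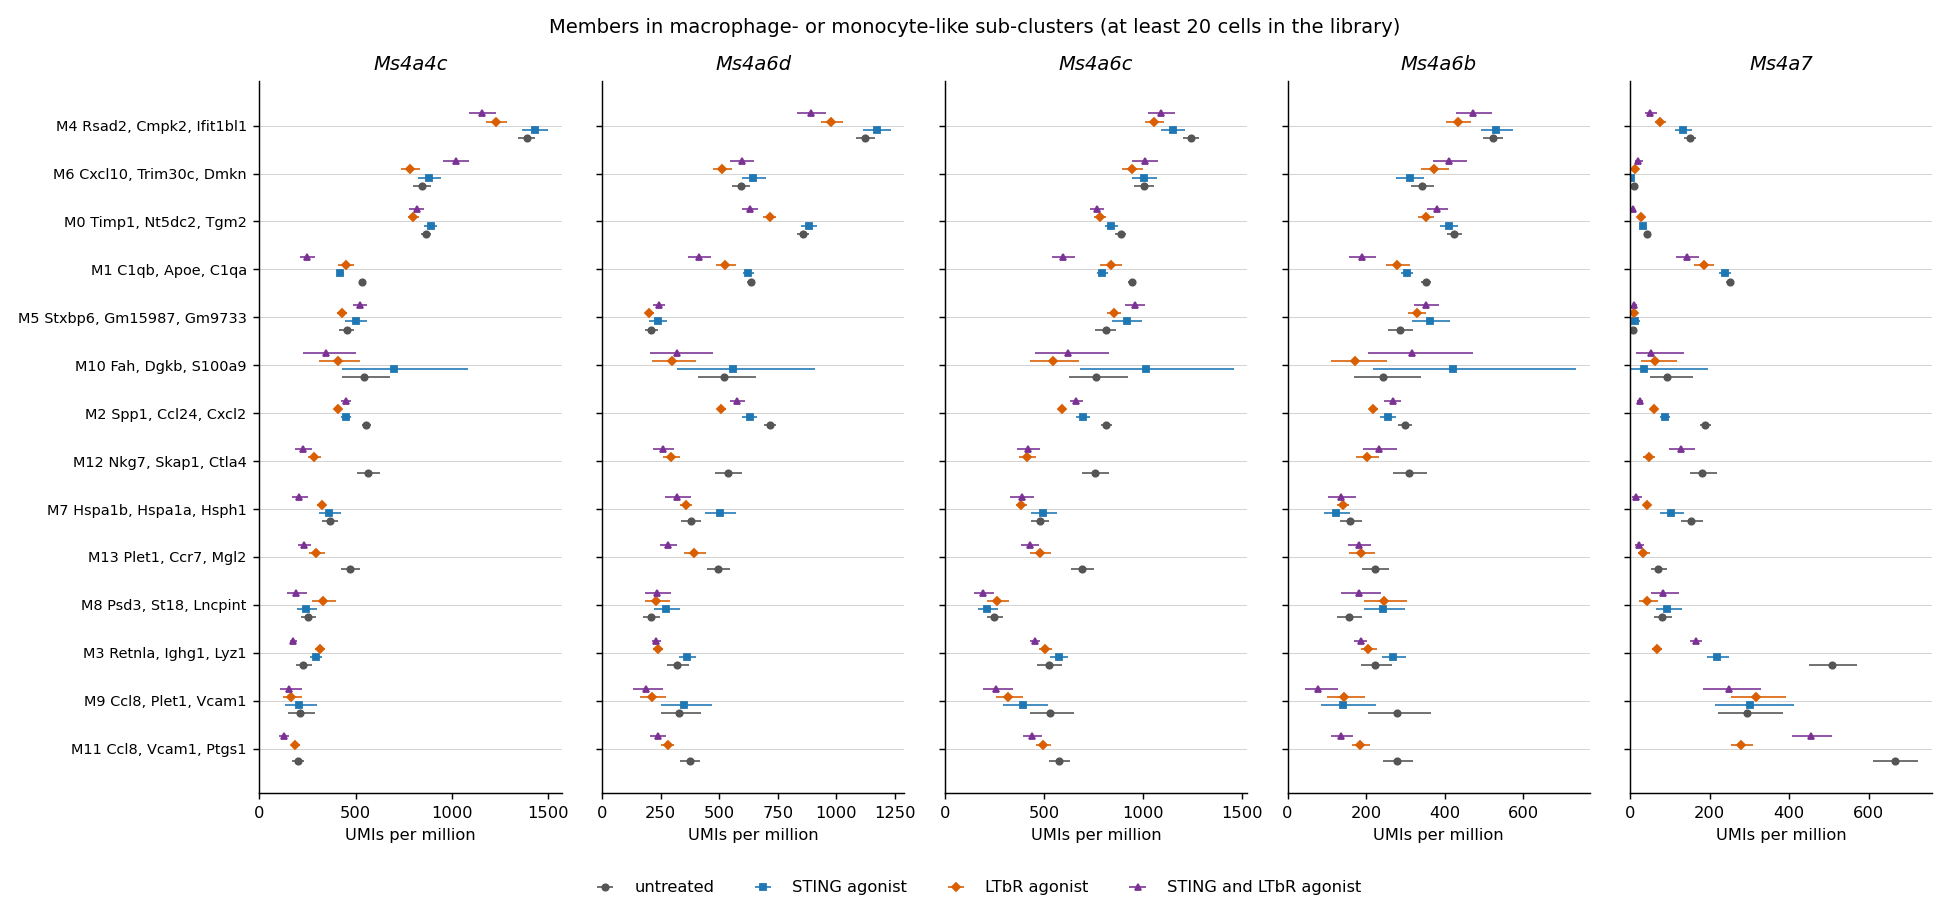
Levels of Ms4a4c, Ms4a6b, Ms4a6c, Ms4a6d and Ms4a7 (CPM) in the macrophage- or monocyte-like sub-clusters, with 1 point per library with at least 20 cells and exact 95% counting intervals. M4 is highest for the first 4 genes, while Ms4a7 is highest in M11 and M9.

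Ms4a7 was also lower within most sub-clusters. Of 13 sub-clusters with enough counts, Ms4a7 was below untreated in 11 with the LTbR agonist, past 1.5-fold in 8, and in 10 with the combination, past 1.5-fold in 7. It was above untreated in 2 with the LTbR agonist, past 1.5-fold in 0, and in 3 with the combination, past 1.5-fold in 1 (0.62 on the log2 scale). In M3, Ms4a7 stood at 507, 219, 67.1 and 165 CPM in the 4 libraries. M3 also carried immunoglobulin RNA, mostly in the LTbR agonist library, with Igkc at 0, 0.925, 222 and 12.7 CPM and Ighg1 at 0, 0, 396 and 0.372 CPM, and its part in the Ms4a7 levels was not tested. In M2, led by Spp1 and Ccl24, Ms4a7 stood at 189, 86.7, 59.97 and 24.0 CPM. In M1 the values were 251, 238, 185 and 142 CPM. M9 differed from these, with 294, 301, 317 and 249 CPM. With each sub-cluster weighted by its share of the class over the 4 libraries together, the Ms4a7 ratios over untreated were -0.50 with the STING agonist, -1.04 with the LTbR agonist and -1.11 with the combination. Those of Ms4a6d were 0.03, -0.31 and -0.39, so that with this weighting Ms4a6d no longer passed 1.5-fold with the combination. Within sub-clusters Ms4a6d was highest in the STING agonist library in 8 of 11, and lowest in the combination library in 6 and in the LTbR agonist library in 4.

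The paralogs Ms4a6c and Ms4a6d, which were alike over clusters, were read in different proportion in certain sub-clusters. In M5, led by Stxbp6 and Gm15987, there were 0.257, 0.258, 0.235 and 0.252 UMIs of Ms4a6d per UMI of Ms4a6c in the 4 libraries. The non-classical monocyte-like cluster had 0.188, 0.177, 0.194 and 0.172. M4 had 0.906, 1.02, 0.927 and 0.818, and monocyte-like M0 had 0.968, 1.05, 0.913 and 0.822. M3 lay between, at 0.612, 0.630, 0.467 and 0.508. The difference between M5 and M4 was thus present in each library, with intervals of 0.231 to 0.263 and 0.891 to 0.9504 over the libraries together. Ms4a6c itself was not low in M5 (879 CPM, against a median of 604 CPM over the sub-clusters), while Ms4a6d had its lowest level there (217 CPM). Ms4a7 was at 0.011 UMIs per UMI of Ms4a6c in M5 and at 0.870 in M11.

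**Figure D5:**
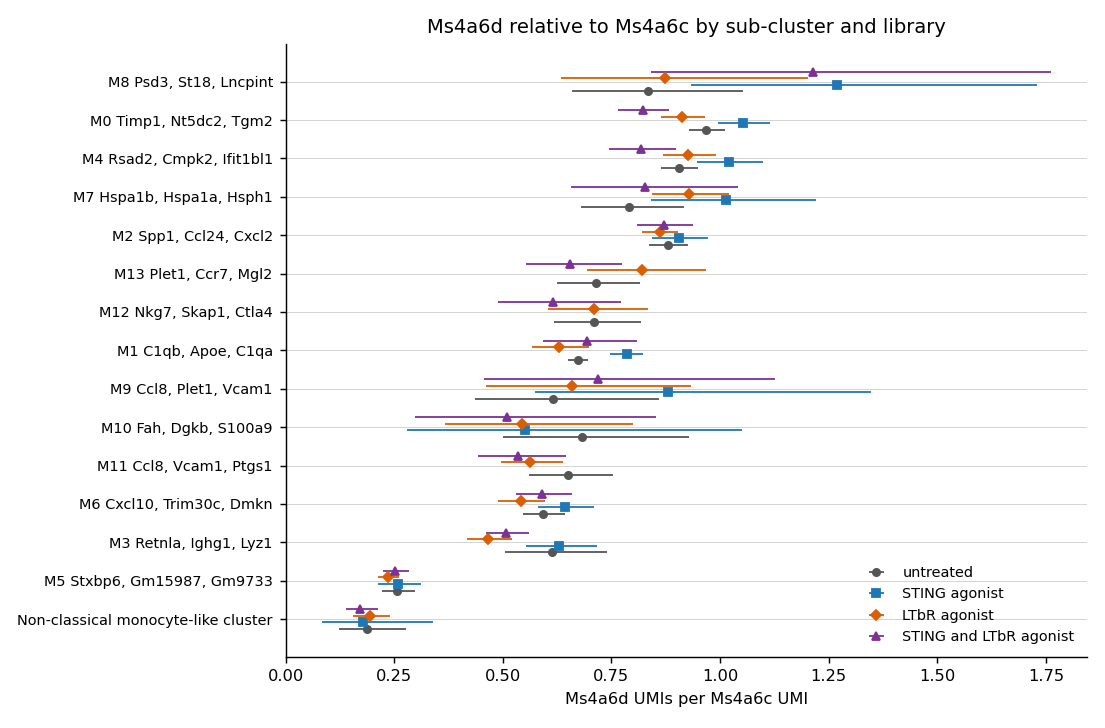
UMIs of Ms4a6d per UMI of Ms4a6c in the macrophage- or monocyte-like sub-clusters and in the non-classical monocyte-like cluster, with 1 point per library and exact 95% counting intervals. M5 and the non-classical cluster lie between 0.172 and 0.258 in all 4 libraries.

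Of the rest of the family, 12 further Ms4a genes and the related 4-span genes Tmem176a and Tmem176b, 5 had at least 50 UMIs in 1 library, and Ms4a12 and Ms4a13 had none. Ms4a4a, a macrophage member, stood at 438, 423, 264 and 187 CPM in macrophage- or monocyte-like cells. Its log2 ratios over untreated were -0.05 (-0.11 to 0.01), -0.71 (-0.77 to -0.65) and -1.19 (-1.27 to -1.11), and it was lower past 1.5-fold with both the LTbR agonist and the combination. Within sub-clusters it was lowest in the combination library in 9 of 11. Tmem176b, whose product sits in intracellular membranes of antigen-presenting cells, went the other way, at 54.2, 56.3, 106 and 121 CPM, with ratios of 0.86 (0.74 to 0.97) under the LTbR agonist and 1.03 (0.90 to 1.15) under the combination. Tmem176a, its neighbor, had 0.84 and 0.97. Ms4a8a, at 28.5, 27.5, 28.7 and 21.6 CPM, did not pass 1.5-fold. Ms4a14 was too low in these cells to be compared, at 2.71, 1.88, 0.875 and 0.756 CPM over all cells of the 4 libraries.

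Of 11 genes whose products work with MS4A proteins, 6 had enough counts in macrophage- or monocyte-like cells. Of these 1, Trem2, was lower with the LTbR agonist, where 0.704% of 7524 genes were lower. Trem2 stood at 145, 161, 84.9 and 96.4 CPM in the 4 libraries, with ratios over untreated of 0.14, -0.71 and -0.54. Its adaptor Tyrobp differed by -0.04, 0.00 and -0.05. In T-like cells, 3 of 6 of these genes with enough counts, Trem2, Tyrobp and Fcer1g, were lower with the STING agonist (2.51% of all genes) and with the combination (1.92%). These levels include the cells of T4, and without T4 0 of 4 were lower in either comparison. In B- and plasma-like cells 1 of 9, Tnfrsf18, was higher with the LTbR agonist and with the combination, close to the 9.69% and 9.41% of all genes. Without B4 and B5, 1 of 8 was higher with the LTbR agonist and 0 of 9 with the combination. The shares of all genes without B4 and B5 are not given here, so these counts are not read as a result. Of the 9 interferon-stimulated genes, 1 was lower in T-like cells with the combination and 0 with either agonist alone. Without T4 none was lower, while 1 was higher with the STING agonist and 2 with the LTbR agonist. In the class as a whole, T4 included, 0.905% and 0.747% of all genes were higher in these comparisons. The shares of all genes without T4 are not given here, so these counts are not read as a result. In B- and plasma-like cells, B4 and B5 included, 2 of the 9 were lower with the LTbR agonist and 1 with the combination, where 6.59% and 5.82% of all genes were. In dendritic-like cells, Ms4a4c stood at 454, 495, 330 and 253 CPM and Ms4a6d at 225, 219, 164 and 136 CPM. Of 5 members with enough counts there, none passed 1.5-fold with the STING agonist, where 0.515% of 8151 genes were lower, or with the LTbR agonist, where 0.612% of 8176 genes were lower. These 2 members were lower with the combination, by -0.82 and -0.69 on the log2 scale, where 1.55% of 8178 genes were lower. The dendritic-like class joins clusters that differ in both genes. Over the 4 libraries, Ms4a4c stood at 548 CPM in the cluster led by Plet1 and at 114 CPM in that led by Fscn1. Ms4a6d stood at 272 and 50.5 CPM in these clusters. Whether the mix of dendritic-like clusters differed between libraries was not tested, so these ratios are not read as changes within a cluster. In the non-classical monocyte-like cluster Ms4a6c stood at 533, 488, 515 and 572 CPM and Ms4a6d at 100.2, 86.6, 99.8 and 98.3 CPM, with overlapping intervals for each gene.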

How the data were processed

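Per the methods of the study and the processing notes of the submitters, the authors sorted live CD45+ cells, made 5′ 10x libraries and counted UMIs with Cell Ranger 7.1.0 against mm10. The deposited matrix holds raw UMI counts of 32285 genes in 24839 barcodes from 4 libraries, assigned to samples by the barcode suffix that the labels give, and 0 value columns were left without a sample. The quality limits of the study were applied, namely 300 to 5000 genes detected per cell and no more than 6% of UMIs from mitochondrial genes, which left 23011 cells (92.6%). Filtered UMIs per library ranged from 29751027 to 53910673. Counts were scaled to 10000, log-transformed, reduced to 2000 variable genes (no V(D)J segment and no Ms4a gene) and 30 components, and clustered with the Leiden method (20 neighbours, resolution 1, scanpy 1.11.5, leidenalg 0.10.2, Python 3.11.15). Classes were named from marker lists.

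UMIs were summed per library and class. Ratios are log2 of CPM plus 10, for genes with at least 10 CPM in 1 of the 2 libraries and 20 UMIs in both together, called at 1.5-fold, with exact Poisson intervals, and shares have Clopper-Pearson intervals (scipy 1.17.1). The ratio script recovered known changes in simulated data. Doublets were kept, and removals were tried as alternatives. The members, the lists and the sub-cluster names were chosen with earlier results of these data known. Named genes are the 7 members, other family genes with at least 50 UMIs in 1 library, listed partners, and the genes most like each member. Ms4a2 and the neutrophil-like values, and the immunoglobulin genes of 1 sub-cluster, were added after their values were seen. Promoter sequences are from RefSeq (GRCm38.p6).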

Additional observations from a re-analysis of the deposited data

How the results depend on the processing

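Across 78 member ratios and 11 alternatives, giving 845 values, 640 stayed within the counting interval of the ratio, 191 left it, and 14 turned the sign of a ratio past 1.5-fold (given below). Smaller ratios turned sign in 24 of the 640 and 24 of the 191, so that 62 values turned in all. In macrophage- or monocyte-like cells, the 2 members past 1.5-fold with the combination became 1 with sub-clusters weighted and 0 at 2-fold. The T-like count for the STING agonist (2) became 1 with 50 CPM added, with mean CPM per cell and with classes from marker counts, and 0 with weighted sub-clusters, without cells carrying markers of 2 classes, without mixed sub-clusters and at 2-fold. For the LTbR agonist (1) it became 0 with 50 CPM added, weighted, with marker-count classes, without cells carrying markers of 2 classes, without cells of a Scrublet score above 0.2, without mixed sub-clusters and at 2-fold. For the combination (3) it became 1 with 50 CPM added and without cells carrying markers of 2 classes, and 0 weighted, with marker-count classes, without high Scrublet scores, without mixed sub-clusters and at 2-fold. In B- and plasma-like cells, the count for the LTbR agonist (2) became 1 with 50 CPM added, without high Scrublet scores, without mixed sub-clusters (Ms4a6c, not past 1.5-fold otherwise), without the top cell of each gene and at 2-fold, and 0 without cells carrying markers of 2 classes. For the combination (3) it became 0 without cells carrying markers of 2 classes and without mixed sub-clusters. Leaving out mixed sub-clusters was chosen after seeing the data.

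In T-like cells with the STING agonist, weighting reversed Ms4a6c (0.025) and Ms4a6d (0.13), and of the smaller ratios Ms4a7 (-0.49 to 0.21) and Ms4a4c (-0.47 to 0.032). In B- and plasma-like cells with the LTbR agonist, Ms4a4b was -0.73 without cells carrying markers of 2 classes, and Ms4a6d was 0.17 with marker-count classes and 0.16 without mixed sub-clusters. With the combination, Ms4a4b was -1.38 without cells carrying markers of 2 classes and -0.60 without mixed sub-clusters, and Ms4a6d was 0.045 with marker-count classes, 0.21 without cells carrying markers of 2 classes and 0.16 without mixed sub-clusters. Ms4a7 there was 0.27 with marker-count classes, 0.78 without high Scrublet scores, 0.11 without mixed sub-clusters and 0.32 without the top cell. Without mixed sub-clusters, Ms4a4b, Ms4a6d and Ms4a7 have at most 10 UMIs in each library, so that the added 10 CPM weigh on these values. The cause was not tested. Weighting could not be run for B- and plasma-like cells against untreated, for lack of sub-clusters with 20 cells in both libraries. No paired analysis was possible because each group has 1 library, and no replicate could be left out. With 15 B- and plasma-like cells, the STING agonist library allows no statement on members other than Ms4a1 there.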

Other observations

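Ms4a2, which encodes the beta chain of the high-affinity IgE receptor of mast cells and basophils, had 30 UMIs in all. Of these, 25 lay in the 44 mast- or basophil-like cells, at 68.5 CPM of that class, against 2 UMIs in 8947 macrophage- or monocyte-like cells and 1 in 8096 T-like cells. By library its UMIs in mast- or basophil-like cells were 5 in 13 cells (untreated), 4 in 5 cells (STING agonist), 15 in 19 cells (LTbR agonist) and 1 in 7 cells (combination), too few to compare levels.

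In neutrophil-like cells, of which the libraries held 226, 304, 372 and 68, Ms4a4c, Ms4a6c and Ms4a6d were lowest in the STING agonist library. Ms4a4c stood at 116, 62.4, 191 and 298 CPM in the untreated, STING agonist, LTbR agonist and combination libraries, and Ms4a6c at 139, 57.9, 211 and 229 CPM. Ms4a6d stood at 99.9, 50.1, 139 and 112 CPM. Few cells carried these UMIs, and a single cell held 53.6% of the Ms4a4c UMIs and 57.1% of the Ms4a6d UMIs of the combination library.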
